A study of Mus musculus with 4 samples.

Results

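The genes described here encode 10 proteins that neutrophils store in their granules or make late in their development, taken by symbol from the 55487 genes of the count tables. They were set in 3 groups: the azurophil genes Elane, Mpo, Prtn3 and Ctsg, the specific granule genes Camp, Ngp and Ltf, and the late genes Mmp8, Mmp9 and Retnlg. All 10 were found, and all 10 passed the level of 10 CPM (the share of all UMIs of a library scaled to 1e6, where a UMI is a unique molecular identifier that counts 1 captured RNA molecule) on average over the libraries. Choosing them used no value of the data, but they were proposed with earlier results of these data known. They served to place the cells of the neutrophil lineage by maturity, and 368 of 21380 kept cells belonged to that lineage.

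The study asked how loss of the transcription factor KLF4 from endothelium, together with age, changes the brain and its vessels. Droplet single-cell RNA sequencing of cells from mouse brain gave 4 libraries, 1 for each combination of age (young, old) and genotype (WT Cre, EC-K4KO). WT Cre mice carry only the Cdh5-driven Cre, and EC-K4KO mice carry it with a floxed Klf4. According to the methods of the study, Cre was of the tamoxifen-inducible kind and both genotypes were treated alike, whereas the labels name no drug. Cdh5 drives Cre in endothelium throughout the body, so the deletion is not limited to brain, and the labels give no number of mice for a library. Controls were littermates, and mice of both sexes were used. Cells had been enriched for endothelium, yet endothelial-like cells made up 60.8% and 50.7% of those kept from young WT Cre and the young EC-K4KO-labelled library, and 38.7% and 45.1% in old WT Cre and the old EC-K4KO-labelled library. Klf4, the targeted gene, went against the labels: in endothelial-like cells it was at 1718 CPM for young WT Cre against 3291 CPM in the young EC-K4KO-labelled library, and 2092 CPM in old WT Cre against 3306 CPM in the old EC-K4KO-labelled library. The study presents qPCR and a western blot of KLF4 in isolated brain endothelial cells after tamoxifen as its check of the deletion. Those measures are of other cells than these libraries, and the cause of the difference was not tested. Since the Klf4 counts went against the labels here, every direction between genotypes below is given as a direction between labels. Kept cells numbered 4276 to 6795 a library, with 27673602 to 81679945 UMIs in all and a median of 4592.5 to 8868 UMIs a cell. With 1 library a group there is no replicate check and no test. Intervals are at 95% and cover counting error alone, and they are too narrow for sums of UMIs, since UMIs from 1 cell are not independent.

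Neutrophils build their granules in sequence while they mature in bone marrow. Promyelocytes transcribe the azurophil genes, myelocytes and metamyelocytes the specific granule genes, and band cells and mature neutrophils the late genes, and each set is shut off as the next comes on. A mature neutrophil keeps the stored protein after its mRNA is gone. Azurophil and specific granule mRNA is thus a mark of marrow-type precursors, and circulating neutrophils carry late mRNA with little of the other groups. In GRCm38 (GENCODE vM21), Prtn3 (chromosome 10, 79874476 to 79883174) and Elane (79886247 to 79888215) lie 3073 bases apart. Mpo is on chromosome 11 (87793581 to 87804413) and Ctsg on chromosome 14 (56099881 to 56102574). Camp, Ngp, Ltf and Mmp8 are all on chromosome 9, Mmp9 is on chromosome 2 and Retnlg on chromosome 16.

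Promoters of 9 of the 10 genes were in the set of RefSeq promoters used (GRCm38.p6), and that set held none for Mmp9. Stretches upstream of the start are printed for 2 azurophil, 2 specific and 1 late gene, to show the short motifs that these windows hold. Capitals mark GGAAGT, a core bound by PU.1 and other ETS factors, in Elane and Ctsg, and TTNNGCAA, a core of C/EBP sites, in Ngp, Ltf and Retnlg, each on either strand.
Elane, chr10:79886062-79886246, plus strand: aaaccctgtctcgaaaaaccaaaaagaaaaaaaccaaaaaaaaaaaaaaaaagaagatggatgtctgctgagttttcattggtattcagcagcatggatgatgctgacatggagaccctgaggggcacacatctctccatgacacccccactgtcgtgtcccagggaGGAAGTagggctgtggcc
Ctsg, chr14:56102575-56102824, minus strand: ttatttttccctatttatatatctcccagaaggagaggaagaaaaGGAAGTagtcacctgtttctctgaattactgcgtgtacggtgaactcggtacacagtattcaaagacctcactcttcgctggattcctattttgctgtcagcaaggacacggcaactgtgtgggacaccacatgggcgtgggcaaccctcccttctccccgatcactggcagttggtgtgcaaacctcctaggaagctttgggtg
Ngp, chr9:110419558-110419746, plus strand: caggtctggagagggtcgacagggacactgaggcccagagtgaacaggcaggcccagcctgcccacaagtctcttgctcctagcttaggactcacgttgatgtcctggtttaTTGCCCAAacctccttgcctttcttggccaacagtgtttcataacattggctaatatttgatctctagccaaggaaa
Ltf, chr9:111019042-111019270, plus strand: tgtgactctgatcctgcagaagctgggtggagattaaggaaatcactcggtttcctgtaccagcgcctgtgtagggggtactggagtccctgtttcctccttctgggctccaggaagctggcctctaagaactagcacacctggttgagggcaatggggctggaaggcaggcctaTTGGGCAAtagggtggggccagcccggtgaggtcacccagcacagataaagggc
Retnlg, chr16:48872358-48872607, plus strand: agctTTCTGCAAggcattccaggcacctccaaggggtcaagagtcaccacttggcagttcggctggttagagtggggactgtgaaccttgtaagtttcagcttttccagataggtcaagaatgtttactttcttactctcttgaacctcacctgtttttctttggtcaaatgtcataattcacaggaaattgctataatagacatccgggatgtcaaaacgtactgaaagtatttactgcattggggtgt

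Over the 250 bases upstream of the RefSeq start, GGAAGT was found in all 4 azurophil genes and in Mmp8, and in no specific granule gene, against 19.99% of 27025 promoters. TTNNGCAA was found in Ngp, Ltf, Mmp8 and Retnlg, and in no azurophil gene and not in Camp, against 9.55% of promoters. In Ngp 1 of its 2 matches lies in the stretch shown. Of the other motifs searched on both strands, TTNNGNAA, which includes every TTNNGCAA, was in the same 4 genes (36.9% of promoters), GAGGAA, which can overlap GGAAGT, was in the 4 azurophil genes, Ltf and Mmp8 (23.1%), and AACGG, a Myb core, was in Elane and Prtn3 (14.8%). AACNG, which includes AACGG, was in all 9 (74.1%), TGTGGT, a Runx core, in Ctsg (14.2%), and AAATCA, a Gfi1 core, in Ltf and Mmp8 (12.7%). These are matches of letters among 8 motifs and not binding sites.

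Young WT Cre had 10 neutrophil lineage cells among 4621 (0.216%, exact Clopper-Pearson interval 0.104 to 0.398), and the young EC-K4KO-labelled library 15 among 6795 (0.221%, 0.124 to 0.364). Old WT Cre had 46 among 5688 (0.809%, 0.593 to 1.08), and the old EC-K4KO-labelled library 297 among 4276 (6.95%, 6.20 to 7.75). The young libraries did not differ beyond counting error, and the old EC-K4KO-labelled library stood above old WT Cre. Clusters were formed without the 10 genes, but they were named from marker lists that hold all of them, so that lineage cells carry these genes is no finding. A further 16, 54, 26 and 101 cells of the same clusters, in the order young WT Cre, labelled young EC-K4KO, old WT Cre and labelled old EC-K4KO, were left out, because their sub-cluster had too few neutrophil or precursor markers, 3 or more endothelial markers or a larger share of the monocyte markers, or because the barcode failed the check of single barcodes. No lineage barcode was shared between libraries. The doublet step decides part of the old WT Cre cells. The 46 were counted after the automatic threshold had been applied. Removing a set share of the highest scores instead, an alternative added after seeing the data, took 21 of them. Their scores of 0.0916 to 0.101 lie at or just over the lowest score that this rule removed, 0.0916, and under the automatic threshold of 0.232. Those 21 had at most 2 UMIs of the endothelial markers and 9 of the microglial markers, and a median of 14245 UMIs. That alternative took 4 of the 297 cells of the old EC-K4KO-labelled library and none of the young lineage cells.

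The azurophil genes encode enzymes of the first granules: Elane neutrophil elastase, Prtn3 proteinase 3 and Ctsg cathepsin G, all serine proteases, and Mpo myeloperoxidase, which makes hypochlorous acid. Summed over all kept cells, the 4 genes held 58.3 CPM in young WT Cre, 0.661 CPM in the young EC-K4KO-labelled library, 144 CPM in old WT Cre, and the highest level, 558 CPM, in the old EC-K4KO-labelled library. The young EC-K4KO-labelled library was thus near 0. Elane held 19.6, 0, 44.2 and 172 CPM in that order, Mpo 10.5, 0, 21.7 and 74.3 CPM, Prtn3 20.3, 0.637, 53.4 and 228 CPM, and Ctsg 7.90, 0.0245, 24.6 and 83.4 CPM. The young WT Cre signal was 1 cell: all 2486 azurophil UMIs of its lineage cells came from a cell of 53683 UMIs, and the whole library without it held 53 UMIs, or 1.22 CPM. None of the 15 lineage cells of the young EC-K4KO-labelled library had an azurophil UMI, which allows up to 21.8% of cells with a UMI (exact Clopper-Pearson) and does not show that the cells lack the mRNA. In the old pair 11 of 46 (23.9%) and 43 of 297 (14.5%) lineage cells had 1 or more azurophil UMIs, as did 0.590% and 2.49% of endothelial-like cells. The highest cell gave 26.5% of the azurophil lineage UMIs in old WT Cre and 11.0% in the old EC-K4KO-labelled library. Elane reached 496 and 379 UMIs in a cell there, Mpo 269 and 199, Prtn3 547 and 584, and Ctsg 384 and 419.

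Specific granule genes come next in maturation: Camp encodes the cathelicidin antimicrobial peptide, Ngp a cystatin-like protein named neutrophilic granule protein, and Ltf the iron-binding protein lactotransferrin. Together they held 35.4 CPM in young WT Cre, 2.82 CPM in the young EC-K4KO-labelled library, 497 CPM in old WT Cre against 4422 CPM in the old EC-K4KO-labelled library. The order was the same as for the azurophil genes, with a wider gap between the old libraries. Camp held 12.4, 0.588, 243 and 2028 CPM, Ngp 16.2, 1.49, 218 and 2032 CPM, and Ltf 6.73, 0.735, 35.8 and 362 CPM. Again the young values rest on few cells. The highest cell gave 55.8% of the lineage UMIs in young WT Cre and 86.4% in the young EC-K4KO-labelled library, and without it the libraries held 15.8 and 0.637 CPM. In the old pair the highest cell gave 14.1% and 3.60%. A UMI of any of the 3 genes was seen in 23 of 46 lineage cells of old WT Cre and 203 of 297 (68.4%) of the old EC-K4KO-labelled library. By the same rule 22 of 2204 (0.998%) and 195 of 1929 (10.1%) endothelial-like cells, which should lack the genes, had one.

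The late genes were the only group seen in most lineage cells of every library. Mmp8 encodes a collagenase, Mmp9 a gelatinase, and Retnlg a small secreted protein of the resistin family. They held 33.6 CPM in young WT Cre, 19.4 CPM in the young EC-K4KO-labelled library, 60.3 CPM in old WT Cre against 884 CPM in the old EC-K4KO-labelled library. Mmp8 held 4.61, 1.68, 6.76 and 107 CPM, Mmp9 4.64, 2.14, 6.22 and 66.3 CPM, and Retnlg 24.3, 15.6, 47.3 and 711 CPM. The first 3 libraries lay close together and the old EC-K4KO-labelled library far above them. Lineage cells with a late UMI numbered 8 of 10, 15 of 15, 36 of 46 and 269 of 297 in the same order, against 0.0454% to 1.97% of endothelial-like cells. With the automatic doublet threshold each of the 10 genes had the same order of library levels, lowest in the young EC-K4KO-labelled library, then young WT Cre, old WT Cre and the old EC-K4KO-labelled library, and no neighbours in that order had overlapping Poisson intervals. With the set share of doublet scores removed, the specific and the late genes fell below young WT Cre in the old WT Cre library, at log2 ratios of -3.63 (Ltf) to -0.13 (Retnlg), and the azurophil genes still higher, at 0.40 (Mpo) to 1.34 (Ctsg).

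**Figure D1:**
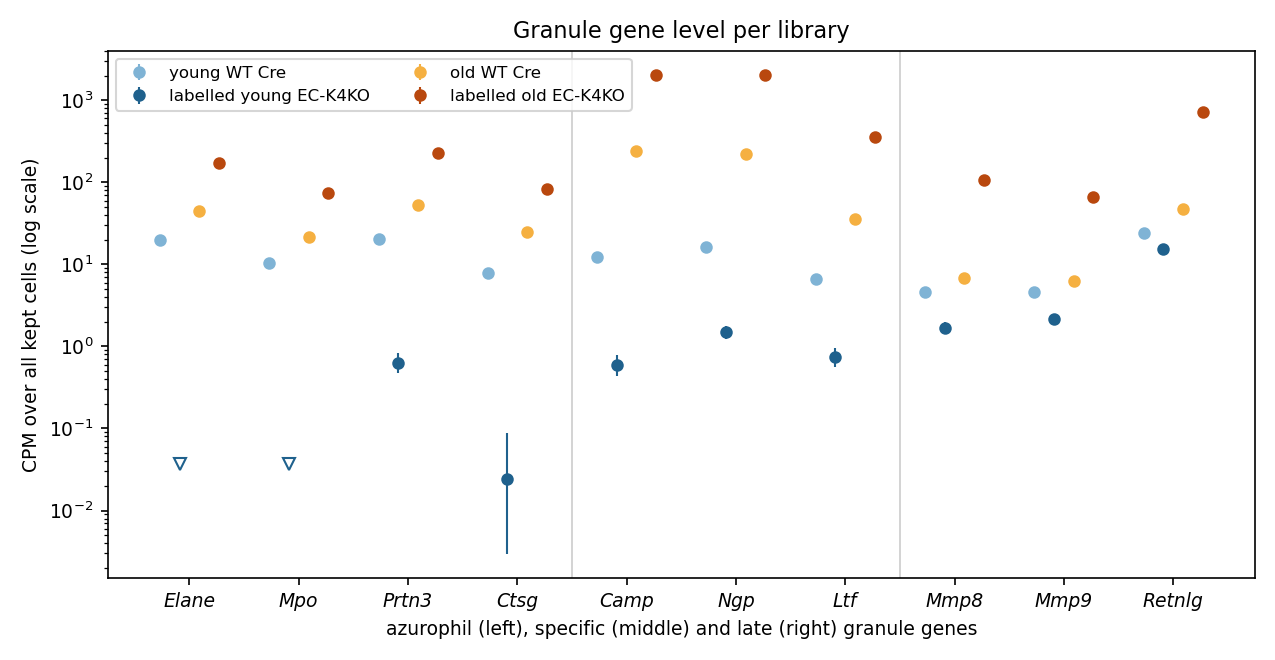
Level of each granule gene summed over all kept cells of a library, in CPM on a log scale, with exact 95% Poisson intervals (counting error only). Open triangles mark a count of 0, drawn at 3 UMIs. With the automatic doublet threshold used here, the old EC-K4KO-labelled library is highest for every gene, as for Camp at 2028 CPM against 243 CPM in old WT Cre, and the young EC-K4KO-labelled library is lowest.

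In the old pair all 10 genes were at least 2-fold higher in the old EC-K4KO-labelled library. Over all 9495 genes of at least 10 CPM, 1.20% were 2-fold or more higher and 0.653% lower. Mmp8 and Mmp9, at 6.76 and 6.22 CPM in old WT Cre, reached that mean only through the old EC-K4KO-labelled library, so their part of the count was fixed by the filter. The ratio of CPM was 3.88 (exact conditional binomial interval 3.77 to 3.999) for the azurophil, 8.89 (8.77 to 9.02) for the specific and 14.7 (14.1 to 15.3) for the late group. Single azurophil genes ran from 3.39 for Ctsg to 4.28 for Prtn3, specific genes from 8.35 for Camp to 10.1 for Ltf, and late genes from 10.7 for Mmp9 to 15.8 for Mmp8, and the intervals of Ltf (9.60 to 10.7) and Mmp9 (9.40 to 12.2) overlap. The order of the groups depends on the doublet rule: with the set share removed, log2 ratios were 2.03 to 2.64 for azurophil genes, 8.60 to 9.37 for specific genes and 4.14 to 5.17 for late genes, so that the specific genes then had the highest ratios. The median log2 ratio was 3.13 over the 10 genes and -0.03 over all genes tested. A library sum does not tell more lineage cells from more mRNA in each, which the lineage cells alone can show.

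Within lineage cells the picture differed. Azurophil genes held 12849 CPM of the lineage sum in old WT Cre against 6376 CPM in the old EC-K4KO-labelled library, a ratio of 0.496 (0.481 to 0.512). Specific granule genes held 47119.5 and 57621 CPM, a ratio of 1.22 (1.21 to 1.24). Late genes held 4221 and 11619.6 CPM, a ratio of 2.75 (2.63 to 2.88). Mmp8 (2.71), Mmp9 (2.01) and Retnlg (2.86) were 2-fold or more higher, against 4.54% of 5727 genes of at least 10 CPM in the lineage of this pair. Elane (0.499), Mpo (0.470) and Ctsg (0.419) were 2-fold or more lower, against 8.92%, and Prtn3 stood at 0.542. These 3 calls rest on 1 of the 46 old WT Cre cells, which was chosen after its values were seen. Without it the log2 ratios were -0.80 for Elane, -0.67 for Mpo, -0.58 for Prtn3 and -0.72 for Ctsg, with no gene 2-fold lower, and Mmp9 went to 0.88. Without that cell and the azurophil-highest cell of the old EC-K4KO-labelled library they were -0.91, -0.78, -0.73 and -0.95. Camp (1.13), Ngp (1.29) and Ltf (1.44) stayed within 2-fold. The median log2 ratio was 0.27 over the 10 genes and -0.18 over all genes tested. With cells weighted equally the azurophil mean was 4418 CPM in old WT Cre against 1884 CPM in the old EC-K4KO-labelled library, the specific mean 30352 and 37127 CPM, and the late mean 8830 and 20400.5 CPM. Retnlg then had a log2 ratio of 1.26 and Mmp9 one of 0.55. Lineage cells taken by a count of other neutrophil genes gave no late gene past 2-fold (Retnlg 0.68, Mmp8 0.82) and all 4 azurophil genes lower by 2-fold or more. With the set share of doublet scores removed, and the 21 old WT Cre cells with it, Camp, Ngp and Ltf had log2 ratios of 5.24, 4.43 and 5.32.

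**Figure D2:**
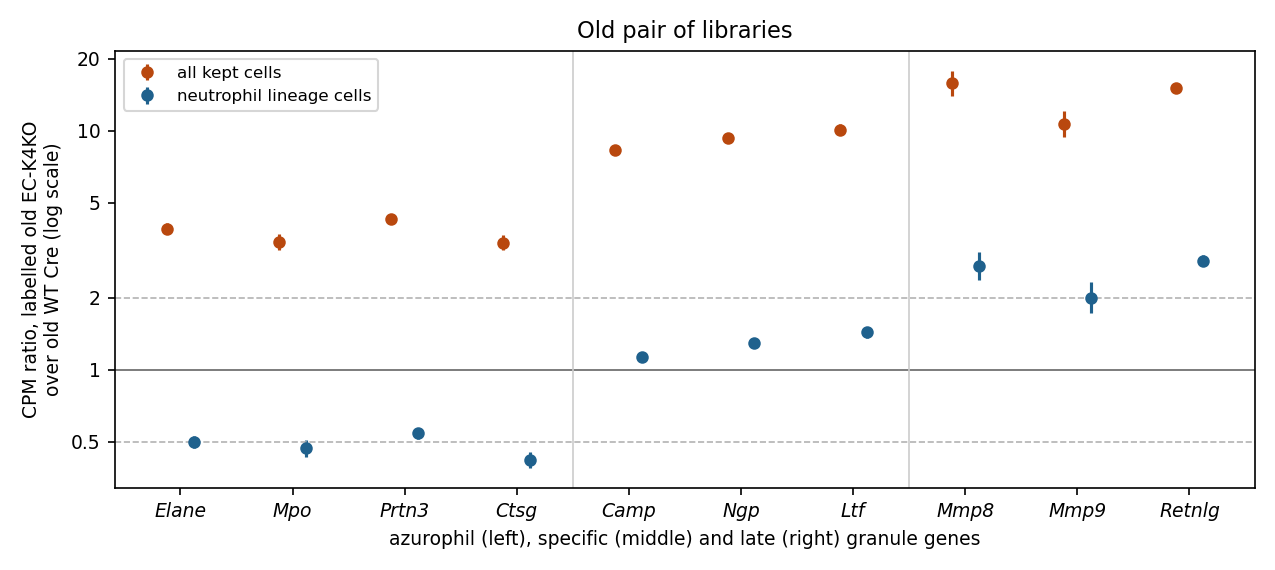
Ratio of CPM in the old EC-K4KO-labelled library to old WT Cre for each granule gene on a log axis, over all kept cells and within neutrophil lineage cells, with exact 95% conditional binomial intervals (counting error only). Dashed lines mark 2-fold. Over all cells every ratio is above 2, from 3.39 to 15.8, while within the lineage azurophil genes lie at 0.419 to 0.542 and late genes at 2.01 to 2.86.

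In the young pair 9 of the 10 genes were 2-fold or more lower in the young EC-K4KO-labelled library. Over all genes tested 2.49% were lower and 0.221% higher. Retnlg stood at 0.642 (0.591 to 0.697). Ctsg, Ltf, Mmp8 and Mmp9 were under 10 CPM in both young libraries. Elane, Mpo, Camp and Ngp were over 10 CPM in young WT Cre only, with a mean under 10 CPM over the young pair. All of these counted as tested only through the old libraries, and the count is given as a description. The ratio was 0.0113 (0.00850 to 0.0148) for the azurophil, 0.0796 (0.0690 to 0.0915) for the specific and 0.579 (0.539 to 0.622) for the late group. Elane and Mpo had 0 UMIs in the young EC-K4KO-labelled library, and with that 0 set at 3 UMIs their ratios were 0.00187 and 0.00351. These are not upper bounds, since 1 cell of young WT Cre alone held 844 Elane and 453 Mpo UMIs. The specific and late ratios rest mostly on 10 and 15 lineage cells, and the azurophil level of young WT Cre on its 1 cell. None of the 54 azurophil UMIs of the young EC-K4KO-labelled library lay in its lineage cells. Of them 46 lay outside the myeloid clusters. Without the highest lineage cell of each library the azurophil levels were 1.22 CPM in young WT Cre and 0.661 CPM in the young EC-K4KO-labelled library. These came from cells outside the lineage alone. The late levels were then 25.5 and 12.4 CPM. With cells weighted equally, 7 genes were 2-fold or more lower. In lineage cells the azurophil group held 21628 CPM in young WT Cre and 0 in the young EC-K4KO-labelled library, the specific group 13276 and 3214 CPM, and the late group 11467 and 23000.0 CPM. The late direction depends on the weights: 1 cell gave 39.0% of the late UMIs of the young EC-K4KO-labelled library, and with cells weighted equally the late mean was 17004 CPM in young WT Cre and 15073 CPM there.

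Across age, 7 genes were 2-fold or more higher in old than in young WT Cre, and none lower, against 4.45% and 2.97% of all genes. Ctsg and Ltf, at 7.90 and 6.73 CPM in young WT Cre, passed the filter only through the old libraries, so their part of the count was partly fixed by it. Camp was 19.5-fold (17.9 to 21.3), Ngp 13.5-fold (12.5 to 14.6) and Ltf 5.32-fold (4.69 to 6.04) higher, while Mmp8 (1.46), Mmp9 (1.34) and Retnlg (1.95) stayed under 2-fold. The median of all genes tested was -0.24 on the log2 scale in this comparison. The higher level of the specific genes rests on the 21 old WT Cre cells that the set share takes: with the set share removed, the log2 ratio was -2.06 for Camp, -1.66 for Ngp and -3.63 for Ltf. Between the libraries labelled EC-K4KO all 10 genes were 2-fold or more higher in the old one, against 5.38% of all genes (3.45% were lower). In the young library of this pair 9 of the 10 were at 2.14 CPM or less and passed the filter only through other libraries, so the count is partly fixed by it and is given as a description. Ratios ran from 31.0 (26.5 to 36.4) for Mmp9 to 3451 (2603 to 4681) for Camp. Elane and Mpo, at 0 in the young library, had ratios of 4690.0 and 2024 with that 0 set at 3 UMIs. These are not lower bounds, since 1 cell of young WT Cre alone held 844 Elane UMIs. Ctsg, at 2 UMIs in the young library of the pair, had a ratio of 3408 (942 to 28154). The old and young comparisons share libraries.

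Cells were next called positive for a group at 3 or more of its UMIs after each cell was thinned to 1000 UMIs. Azurophil-positive cells were 1 of 10 in young WT Cre, 0 of 15 in the young EC-K4KO-labelled library, 7 of 46 (15.2%, 6.34 to 28.9) in old WT Cre and 22 of 297 (7.41%, 4.70 to 11.0) in the old EC-K4KO-labelled library. The old intervals overlap. Specific-positive cells were 3 of 10, 2 of 15, 18 of 46 (39.1%, 25.1 to 54.6) and 156 of 297 (52.5%, 46.7 to 58.3), and again the old intervals overlap. This share of old WT Cre depends on the doublet rule and the filter: it was 8% against 52.6% in the old EC-K4KO-labelled library with the set share of doublet scores removed, and 72.0% against 87.7% with the stricter filter. Late-positive cells were 7 of 10, 12 of 15, 23 of 46 (50%, 34.9 to 65.1) and 219 of 297 (73.7%, 68.3 to 78.7). The old intervals of the late share do not overlap, but at 1 or more UMIs they do, with 71.7% (56.5 to 84.0) and 81.1% (76.2 to 85.4). As shares of all kept cells, azurophil-positive cells were 0.0216%, 0%, 0.141% and 0.748%, specific-positive cells 0.0649%, 0.0294%, 0.334% and 3.77%, and late-positive cells 0.173%, 0.191%, 0.475% and 5.29%. As shares of kept cells all 3 types of positive cell were thus most frequent in the old EC-K4KO-labelled library. Of its 32 azurophil-positive kept cells 22 were lineage cells and 10 were cells of the myeloid clusters left out of the lineage. In old WT Cre 7 of 8 were lineage cells and 1 was left out.

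The groups were carried in combinations that follow the order of maturation. In the old EC-K4KO-labelled library 11 cells carried azurophil genes alone, 10 azurophil and specific, 40 specific alone, 105 specific and late, 113 late alone and 17 none, while 1 carried all 3 groups. In old WT Cre the numbers were 5, 2, 7, 9, 14 and 9, and none carried all 3. At this threshold no lineage cell carried azurophil and late genes without specific genes. The most frequent combination was late alone in old WT Cre, at 30.4% (17.7 to 45.8), and also in the old EC-K4KO-labelled library, at 38.0% (32.5 to 43.8). Specific with late was 19.6% (9.36 to 33.9) of old WT Cre and 35.4% (29.9 to 41.1) of the old EC-K4KO-labelled library, with overlapping intervals. The none class was 19.6% (9.36 to 33.9) and 5.72% (3.37 to 9.01), with intervals that do not overlap. Young WT Cre had 1 cell with azurophil genes alone, 3 with specific and late, 4 with late alone and 2 with none. The young EC-K4KO-labelled library had 2 with specific and late, 10 with late alone and 3 with none. Neither young library had a cell with specific genes alone, and with so few cells their combinations cannot be set apart from each other.

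**Figure D3:**
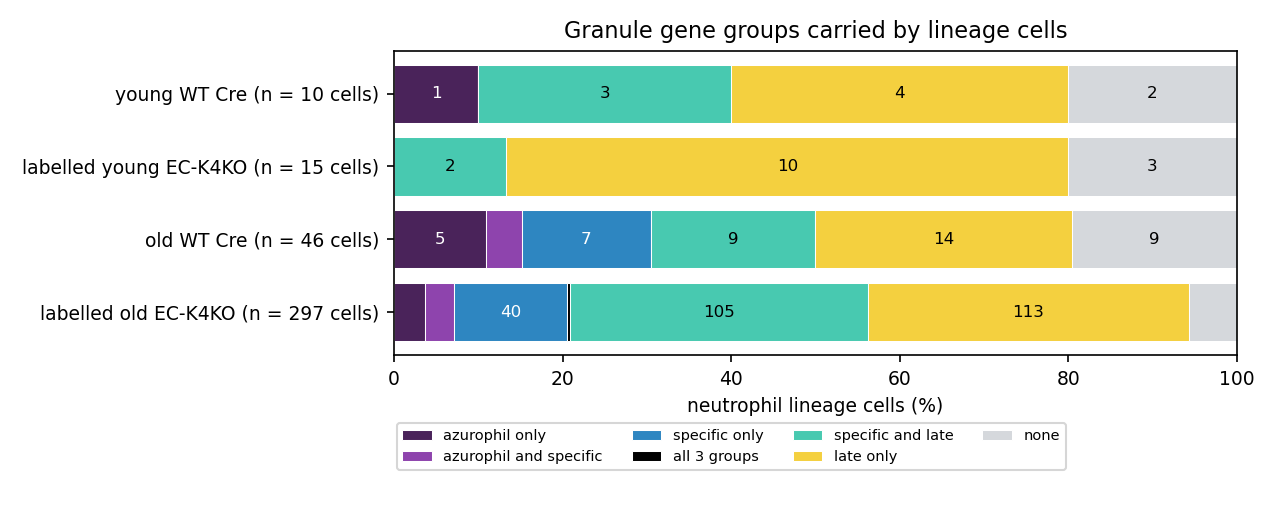
Share of neutrophil lineage cells by the granule gene groups they carry (3 or more UMIs of a group after thinning to 1000 UMIs), 1 bar a library, with cell numbers in the wider segments. Cells with azurophil genes or with specific genes alone appear at the left of both old bars, and the 15 cells of the young EC-K4KO-labelled library fall in 3 classes.

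Combinations differed in size and in genes outside the 10. Median UMIs a cell fell along the order from 31264 for azurophil alone to 2611 for late alone and 1724 for none in old WT Cre, and from 27258 to 2561 and 1452 in the old EC-K4KO-labelled library. In the latter the 12 cell cycle genes summed to 5046 CPM in cells with azurophil genes alone, 4699 CPM with azurophil and specific and 5221 CPM with specific alone. They fell to 1013 CPM with specific and late and 743 CPM with late alone. Old WT Cre had 5128, 5400, 6622, 791 and 1143 CPM in that order. Mki67, a mark of proliferating cells, went from 125, 162 and 294 CPM in the first 3 classes to 44 CPM with specific and late and 0 with late alone. Ms4a3, a membrane protein of granulocyte precursors, fell from 1853 CPM in azurophil-only cells to 178 CPM in specific-only cells and 0 in late-only cells. Cebpe, the C/EBP factor needed for specific granules, was highest in cells with azurophil and specific genes, at 452 CPM, and at 13 CPM in late-only cells. Cebpb went from 600 to 4743 CPM, Cxcr2, a chemokine receptor of mature neutrophils, from 8 to 992 CPM, and Csf3r, the receptor for G-CSF, from 34 to 1065 CPM between azurophil-only and late-only cells. The 17 cells of the none class held 12525 CPM of Il1b, 6885 CPM of Cebpb and 1685 CPM of Csf3r, with 0 UMIs of Elane, Mpo and Ctsg. Ms4a3, Cebpe, Cxcr2 and Csf3r, with Il1r2, Lcn2, Gfi1 and Fcnb, are the 8 genes of which a lineage barcode needed 3 UMIs in sum. Their levels in lineage cells, here and below, are thus partly set by that check. All of this is a description of cells within 1 library.

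**Figure D4:**
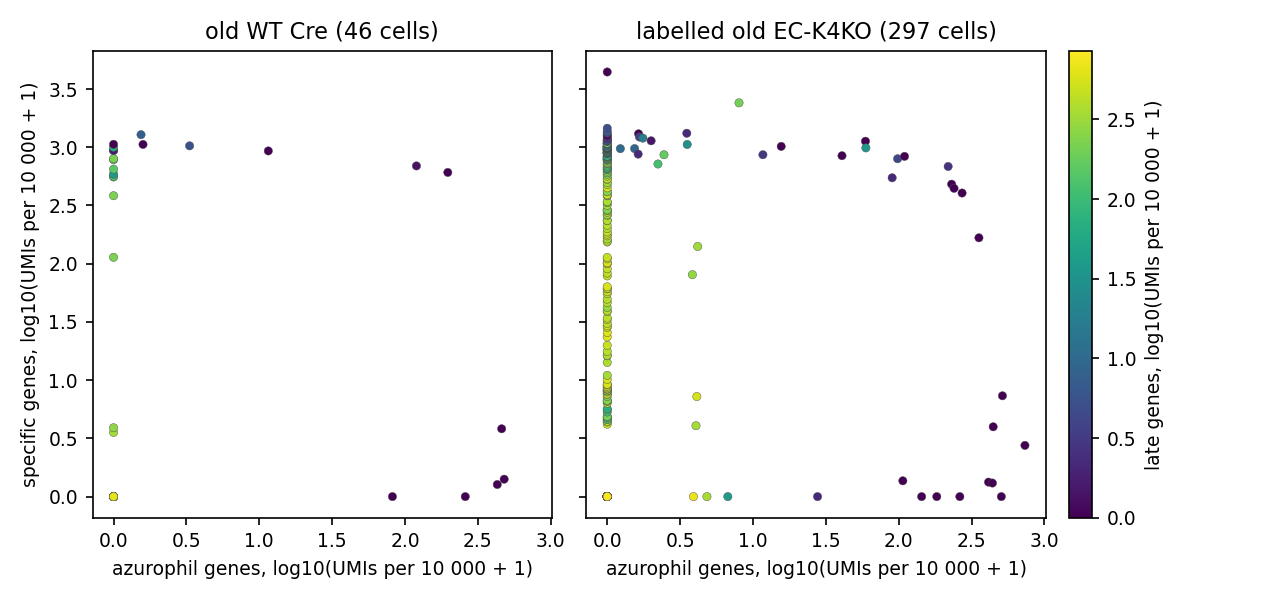
Azurophil against specific granule gene level in single lineage cells of the old libraries, as log10 of UMIs per 10 000 plus 1, with the late level as colour. Cells lie along an arc, from high azurophil with little specific at the lower right, through high specific at the top, to cells without azurophil UMIs at the left edge, where late levels vary widely.

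Sub-clusters of lineage cells were made without the 10 genes, and without the genes of the lists below, among the variable genes. They differed in the granule genes. They are given in an order read from the granule gene levels themselves, so the order is no separate finding. Sub-cluster 4 (20 cells, 5 of old WT Cre and 13 of the old EC-K4KO-labelled library) held 33322 CPM of azurophil genes against 3594 CPM of specific and 7.77 CPM of late genes. In sub-cluster 5 (51 cells, 8 and 43) specific genes reached 96547 CPM beside 4678 CPM of azurophil genes, with 416 CPM of the cell cycle gene Top2a. The 90 cells of sub-cluster 0 (7 and 82, with 1 of young WT Cre) held 74862.5 CPM of specific and 17260 CPM of late genes and 0 Top2a UMIs. Sub-clusters 6 (49 cells, 2 and 42) and 1 (80 cells, 6 and 72) had 36388 and 30987 CPM of late genes, with specific genes down to 16794 and 6571 CPM. Sub-cluster 2 (78 cells) held 8508 CPM of late and 34.4 CPM of specific genes, with Csf3r at 1849 CPM and Il1b at 11027 CPM, and took 11 of the 15 lineage cells of the young EC-K4KO-labelled library, 18 of the 46 of old WT Cre and 45 of the 297 of the old EC-K4KO-labelled library. Before single barcodes were checked, sub-cluster 4 was led by Krt14 and Krt15 beside Ctsg and Mpo, and sub-cluster 6 by Tagln and Acta2. The check left 20 of 51 barcodes of sub-cluster 4 and 49 of 50 of sub-cluster 6. After it the 4 smooth muscle markers still summed to 1427 CPM in the lineage cells of young WT Cre, 156 CPM in the young EC-K4KO-labelled library, 15.1 CPM in old WT Cre, and 164 CPM for the old EC-K4KO-labelled library, and their part in the results was not tested.

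**Figure D5:**
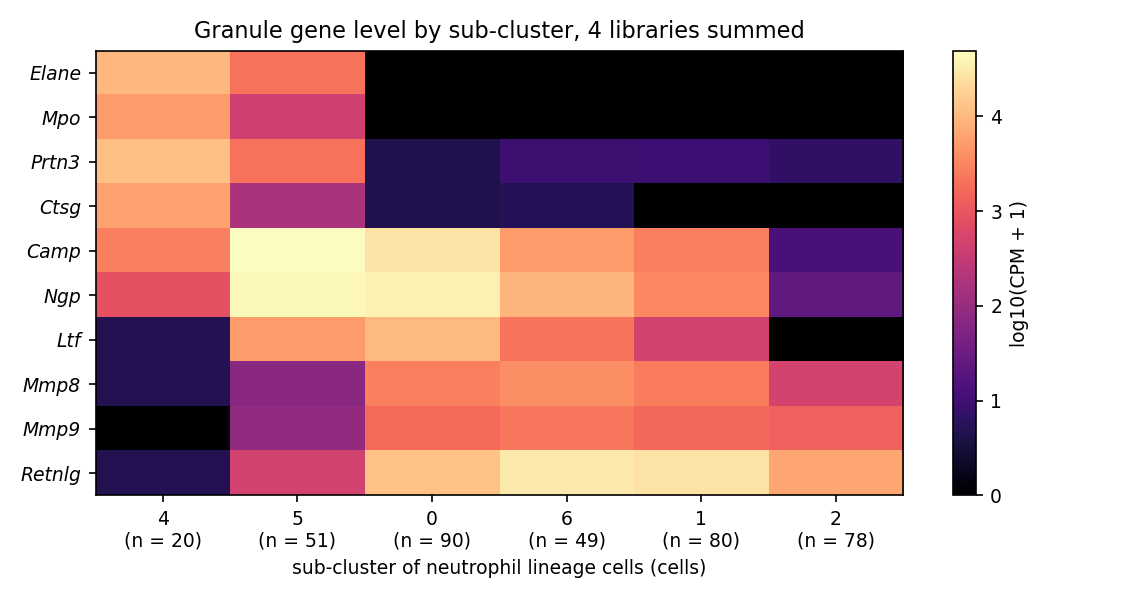
Level of each granule gene in the sub-clusters of neutrophil lineage cells, summed over the 4 libraries, as log10 of CPM plus 1. The order of sub-clusters was set from these levels. Signal moves from the azurophil genes in sub-cluster 4, at 33322 CPM together, through the specific genes in sub-clusters 5 and 0 to the late genes in sub-clusters 6 and 1.

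Members of a group were high and low in the same cells. Over the 297 lineage cells of the old EC-K4KO-labelled library, Pearson's r of log-scaled levels was 0.88 to 0.96 between azurophil genes, 0.88 to 0.92 between specific genes and 0.71 to 0.78 between late genes. Between the group sums it was -0.07 for azurophil and specific, -0.15 for specific and late and -0.47 for azurophil and late. In the 46 cells of old WT Cre the sums gave -0.13, -0.04 and -0.56. These cells share a library and differ in depth, so the values describe the cells and carry no test. Among 3847 other genes seen in at least 10% of the cells, those closest to the azurophil sum were Nkg7 (0.94), a granule protein also found in cytotoxic lymphocytes, Dtymk (0.90) and Dut (0.86), enzymes of thymidine nucleotide supply, Ms4a3 (0.89) and Nop10 (0.83), a part of ribonucleoproteins that modify ribosomal RNA. Closest to the specific sum were Chil3 (0.90), a chitinase-like protein, Cybb (0.85), the NADPH oxidase subunit held in specific granule membranes, Cd177 (0.74), a neutrophil surface protein, Lcn2 (0.73), an iron siderophore-binding granule protein, and Ly6a2 (0.68). The late sum had lower values, with S100a6 (0.67), Prr13 (0.62), Hdc (0.60), which makes histamine, Grina (0.59) and the lactate transporter Slc16a3 (0.58). In old WT Cre these 15 genes had r of 0.49 (Grina) to 0.94 (Ms4a3) with the same sums. Ms4a3 and Lcn2 are also genes of the check of single barcodes.

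Other genes of the same stages were counted from lists within the lineage cells of the old pair. Over all 5727 genes of at least 10 CPM there, 4.54% were 2-fold or more higher and 8.92% lower, and with lists this short the counts below say little against those shares. Of 10 other azurophil and protease processing genes 9 were at 10 CPM or more, with none 2-fold higher and 1 lower, Myb, the factor of early precursors, from 127 to 36.8 CPM. Among the others were Srgn, the proteoglycan that packs granule proteases (2608 and 1967 CPM), Serpinb1a, an inhibitor of the granule serine proteases (778 and 553 CPM), Cd63 and Ctsd. Of 10 other specific granule genes all were tested and none passed 2-fold, with Lcn2 at 7883 and 9437 CPM, Lyz2, lysozyme, at 4750 and 7429 CPM, Chil3 at 4529 and 4639 CPM and Hp at 1374 and 1794 CPM. Of 12 late and surface genes 1 was higher, the decoy interleukin-1 receptor Il1r2 at 116 and 239 CPM, and none lower. Il1b stood at 1191 and 1332 CPM and Wfdc17 at 953 and 590 CPM. Among 12 stage regulators 11 were tested and 2 were lower, Cd34 at 32.3 and 13.7 CPM and Gfi1 at 21.5 and 9.33 CPM. These rest on 15 and 28 UMIs and on 10 and 19 UMIs, and the interval of the Gfi1 ratio, 0.192 to 1.04, includes 1. Of the 12 cell cycle genes 2 were lower, Pcna at 166 and 73.2 CPM and Tyms at 68.8 and 34.4 CPM. Of 10 inhibitors of the member enzymes 5 were tested and 2 were higher, Timp2, an inhibitor of metalloproteinases, at 68.8 and 160 CPM, and Stfa1, a cathepsin inhibitor, at 4.30 and 74.6 CPM from 2 and 152 UMIs. Stfa1, and Gfi1 in the other direction, passed the 10 CPM level only through the library where they were higher. Medians of the lists ran from -0.50 on the log2 scale for the cell cycle to 0.64 for late and surface genes, against -0.18 for all genes tested.

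Outside the lineage the 10 genes were at low levels in most classes. None of the endothelial-like, microglia-like or smooth muscle-like cells was positive at 3 thinned UMIs in any library. Endothelial-like cells, which should lack these genes, had 1 or more specific granule UMIs after thinning in 0 of 2810 cells of young WT Cre, 0 of 3448 of the young EC-K4KO-labelled library, 5 of 2204 of old WT Cre (0.227%) and 57 of 1929 of the old EC-K4KO-labelled library (2.95%), where the median cell had 6409.5, 10004, 4738.5 and 3789 UMIs. Microglia-like cells had 2.47% in the last library, a like share. In the endothelial-like cells of the old EC-K4KO-labelled library the specific level was 19.5 CPM, 0.0339% of the level in its lineage cells. Camp, Ngp and Ltf took 55.1%, 37.9% and 7.01% of those UMIs, and 45.3%, 46.4% and 8.28% of the lineage UMIs. Shares at this level are read as background. The choroid plexus-like and oligodendrocyte-like cells of that library held 311 and 244 CPM of specific genes, and those of old WT Cre 0.679 and 1.05 CPM. Cells of the myeloid clusters left out of the lineage held 15.2% of the azurophil UMIs in the old EC-K4KO-labelled library, among them 18.2% of the Prtn3 UMIs, and 6.02% in old WT Cre. Over the lineage sub-clusters before single barcodes were checked, the azurophil level was 12324 CPM in old WT Cre against 6133 CPM in the old EC-K4KO-labelled library, close to the levels after the check. Prtn3 had 20.2 CPM in cluster 19, an unnamed cluster led by Tmem212 and Ccdc153, 7.19 CPM in fibroblast-like cells and 4.08 CPM in neuron-like cells over the 4 libraries. Mmp9 had 17.0 CPM in cluster 15, an unnamed cluster led by Mrc1 and Pf4, and 99.7 CPM in the 17 oligodendrocyte precursor-like cells of young WT Cre, where Retnlg had 199 CPM, from 11 and 22 UMIs. That class had 0 UMIs of both genes in the other libraries.

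Markers of other cell types moved with these libraries to different degrees. Their counts past 2-fold were made without the 10 CPM level, and the share over all genes by that rule was not counted. From old WT Cre to the old EC-K4KO-labelled library the summed level of the 12 neutrophil markers went from 3548 to 31078 CPM and that of the 8 granulocyte precursor markers from 160 to 649 CPM, lists that hold the 10 genes. S100a8, an abundant neutrophil gene outside the 10, went from 1487 to 13150 CPM. Markers of T and NK cells went from 25.2 to 46.8 CPM, with 1 of 6 genes past 2-fold, and without that gene, Nkg7, from 15.8 to 19.98 CPM. The 6 monocyte markers went from 401 to 667 CPM, with 5 of them 2-fold or more higher, and without Fn1, the highest of them, from 64.8 to 350 CPM. The 6 early erythroid markers went from 111 to 153 CPM with 5 higher, and without Tfrc from 3.19 to 49.5 CPM. The 6 early B markers went from 316 to 391 CPM with 4 higher, and without Akap12 from 9.13 to 24.2 CPM. Car1 of the erythroid list went from 0.3 to 27.7 CPM and Igll1 of the early B list from 0.2 to 3.4 CPM. Mast cell and basophil markers went from 0.292 to 2.28 CPM, with 3 of 6 genes 2-fold or more higher. Among them Mcpt8, a basophil protease, went from 1 to 41 UMIs and Fcer1a from 0 to 7 UMIs, while Tpsb2 was at 0 in both libraries and Mcpt4 at 2 UMIs and 0. Stem and progenitor markers, most of whose sum is Cd34 and Adgrl4, genes that endothelium also expresses, went from 594 to 781 CPM and megakaryocyte and platelet markers from 23.7 to 25.3 CPM, with no gene past 2-fold in either list. Choroid plexus markers went from 51511 to 21737 CPM. The part of other marrow-type cells, or of the tissue taken with the brain, in the granule gene levels was not tested.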

How the data were processed

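The authors deposited raw UMI counts per gene and cell for each of the 4 libraries, made with Cell Ranger (6.0.2 in the matrix header), and the submitters' notes also name Seurat and GRCm38. Barcodes with at least 500 genes, 1000 UMIs and at most 10% mitochondrial UMIs were kept, and doublets were removed in scanpy 1.11.5 by Scrublet's automatic threshold (0.396% to 2.10% a library). Cells were clustered by Leiden at resolution 1 with the 10 genes and all genes of the lists left out of the variable genes. Clusters with at least 3 neutrophil or granulocyte precursor markers were split again, and a lineage barcode also needed 3 UMIs of 8 other neutrophil genes, more than of 4 monocyte genes, a check set after the clusters were seen.

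Counts were summed per library, with exact Poisson, Clopper-Pearson and conditional binomial intervals at 95%. A gene was called at a 2-fold difference, with a mean of at least 10 CPM in the libraries compared or over all 4. Counts of cell type markers past 2-fold used no such level. Medians of log2 ratios over lists and over all genes used CPM plus 1. A count of 0 was set to a floor of 3 UMIs for ratios. The scripts were tested on simulated data. With 1 library a group no test was made.

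Named were the 10 genes, up to 4 genes of each list by level in lineage cells, and 5 correlates a group. Genes past 2-fold in short counts, genes given by combination or sub-cluster and single marker genes were chosen after their values were seen. The members and lists were chosen with earlier results of these data known. Alternatives were other filters, doublet rules, thresholds, lineage rules, equal cell weights and TMM (edgeR 4.0.16).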

Additional observations from a re-analysis of the deposited data

Results flagged for a closer look

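The granule genes went in opposite directions in the young and old pairs. The log2 ratio of the library labelled EC-K4KO to WT Cre over all kept cells was 1.957 for the azurophil, 3.153 for the specific and 3.875 for the late group in the old pair, and -6.462, -3.651 and -0.789 in the young pair. The difference was not tested, since each group is 1 library, and the young azurophil value rests on 1 cell of young WT Cre.

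Barcodes under the cell filter, which enter the results only in the alternatives without a filter, also held these genes in the old EC-K4KO-labelled library. Its 1149 such barcodes had 282.842 CPM of azurophil, 410.811 CPM of specific and 99.2491 CPM of late genes, against at most 2.51, 2.02 and 26.1 CPM in the other libraries. Of those UMIs, 703 of 778 azurophil, 1015 of 1130 specific and 220 of 273 late ones came from 8 barcodes that had 2 or more UMIs of at least 3 other neutrophil genes.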

How the results depend on the processing

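All 10 genes were 2-fold or more higher in the old EC-K4KO-labelled library than in old WT Cre over all kept cells under every alternative run, and the azurophil genes had log2 ratios under 0 within the lineage under all of them. Without the old WT Cre cell with most azurophil UMIs, or without that cell of each old library, 0 genes were 2-fold lower within the lineage, in place of 3. Of 84 other values of the shares of kept cells 65 moved by less than their interval, as did 94 of 108 for the shares of lineage cells and 17 of 20 for the lineage share. In all, 38 of 44 counts of called members stayed within 1.5 times, and 173 of 204 log2 ratios of members kept their direction and their side of 2-fold. No paired analysis was possible because the groups share only replicate number 1 and no test was made. The causes of these moves were not tested beyond what each setting changes.

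Removing the set share of doublet scores turned Camp (-2.06), Ngp (-1.66) and Ltf (-3.63) in old against young WT Cre, where 1 gene was then higher and 3 lower by 2-fold, and within the lineage of the old pair 5 genes were then higher. In old WT Cre it left 0.0542% azurophil-, 0.0361% specific- and 0.289% late-positive cells, 0.451% lineage cells and 8% specific-positive lineage cells.

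With the count rule, the lineage share was 0.456% in the young EC-K4KO-labelled library and 9.03% in the one labelled old EC-K4KO, with 41.9% late-positive in the former and 41.7% specific- and 58.3% late-positive in the latter, and 0 genes were higher in the lineage of the old pair.

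With the stricter filter, shares of kept cells were 1.14% azurophil, 4.83% specific and 3.33% late in the old EC-K4KO-labelled library and 0.525% specific in old WT Cre. Shares of lineage cells were 14.4%, 87.7% and 58.9% in the former and 72.0% specific in the latter. With no filter the old EC-K4KO-labelled library had 3.07% specific and 4.28% late.

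At 1 or more UMIs, shares of kept cells were 0.151% azurophil in young WT Cre, 0.0736% in the young EC-K4KO-labelled library, 0.527% specific and 0.809% late in old WT Cre, and 1.43%, 6.74% and 6.27% in the old EC-K4KO-labelled library. Late-positive lineage cells were then 71.7% in old WT Cre, and 60.6% were specific- and 81.1% late-positive in the old EC-K4KO-labelled library (66.7% late at 5 or more). Without thinning, that library had 1.33% azurophil and 6.74% late of kept cells and 85.5% late of lineage cells, and old WT Cre 0.791% and 71.7% late.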
